A study of Mus musculus with 24 samples.

Results

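Scavenger and endocytic receptors take up modified lipoproteins, glycoproteins, debris, dying cells and microbes from outside the cell. RNA of 10 of them was followed here in co-cultures of mouse macrophages and lymphocytes: Marco, Msr1, Cd163, Cd36, Scarb1, Olr1, Stab1, Mrc1, Lrp1 and Clec7a. They were chosen by symbol, as the rows of the deposited count table whose Ensembl identifier carried that name, and make up 10 of its 55487 gene rows. In mouse they lie on chromosomes 1 (Marco), 2 (Mrc1), 5 (Cd36 and Scarb1), 6 (Cd163, Olr1 and Clec7a), 8 (Msr1), 10 (Lrp1) and 14 (Stab1). All 10 had enough counts to be tested. The 24 libraries formed 8 groups of 3. The macrophages were grown from bone marrow and were either Tmem175-/- (knockout) or WT. Tmem175 encodes an ion channel of the lysosome. Both kinds were kept with lymphocytes from the spleen of mice that carried tumours of B16-F10-OVA, a melanoma cell line that makes ovalbumin. For each genotype there was a group with B16-F10-OVA tumour cell antigen plus IL-1β at 500 pg/ml, a group with antigen plus IL-18 at 500 pg/ml, a group with antigen alone and a group with neither antigen nor cytokine. The labels give no genotype for the lymphocytes, no macrophage number and no culture time. In 11 of the 12 knockout samples the field for genotype names other Tmem genes, numbered in sequence, while the titles say Tmem175-/- throughout. Nothing in the labels ties the 3 libraries of a group to separate mice or cultures, so p-values measure only the spread between these samples, which may be technical.

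As background, scavenger receptors bind a wide range of negatively charged ligands, and macrophages carry several of them at once, so that bacteria, oxidised LDL and dying cells each have several routes of entry. Mannose receptor, dectin-1 and LRP1 likewise bind and internalise sugars, fungal walls and protease complexes. Much of what these receptors bring in, though not all, is delivered through endosomes to lysosomes. In macrophages MARCO is known to be induced by microbial products, whereas CD36, mannose receptor and dectin-1 are known to be raised by IL-4 and by the nuclear receptor PPARγ.

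Promoters of 8 of the 10 genes, 9 sequences in all, were found in RefSeq's GRCm38.p6 table, each from 250 bases before to 50 bases after the annotated start. Those of the 4 genes with the largest antigen responses are shown, 5′ to 3′ on the gene's strand, with capitals marking matches to the motifs searched.
Marco (chr1:120504975-120505274, minus strand): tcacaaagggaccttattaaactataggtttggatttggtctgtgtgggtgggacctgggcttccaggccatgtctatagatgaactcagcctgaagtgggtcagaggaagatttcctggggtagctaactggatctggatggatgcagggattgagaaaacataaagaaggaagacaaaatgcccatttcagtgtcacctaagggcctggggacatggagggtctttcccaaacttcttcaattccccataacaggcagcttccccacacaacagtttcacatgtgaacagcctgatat
Clec7a (chr6:129472730-129473029, minus strand): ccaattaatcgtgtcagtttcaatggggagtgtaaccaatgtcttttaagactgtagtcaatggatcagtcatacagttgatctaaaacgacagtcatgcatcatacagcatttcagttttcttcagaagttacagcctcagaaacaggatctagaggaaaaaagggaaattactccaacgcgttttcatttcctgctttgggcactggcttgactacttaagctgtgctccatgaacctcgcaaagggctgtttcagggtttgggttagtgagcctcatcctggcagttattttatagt
Cd36 (chr5:17835847-17836146, minus strand): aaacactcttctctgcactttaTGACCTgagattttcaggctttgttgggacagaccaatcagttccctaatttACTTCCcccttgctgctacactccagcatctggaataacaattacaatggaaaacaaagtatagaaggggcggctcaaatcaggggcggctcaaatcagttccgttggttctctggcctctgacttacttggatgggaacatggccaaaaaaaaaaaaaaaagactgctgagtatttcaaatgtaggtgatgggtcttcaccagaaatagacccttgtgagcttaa
Mrc1 (chr2:14229164-14229463, plus strand): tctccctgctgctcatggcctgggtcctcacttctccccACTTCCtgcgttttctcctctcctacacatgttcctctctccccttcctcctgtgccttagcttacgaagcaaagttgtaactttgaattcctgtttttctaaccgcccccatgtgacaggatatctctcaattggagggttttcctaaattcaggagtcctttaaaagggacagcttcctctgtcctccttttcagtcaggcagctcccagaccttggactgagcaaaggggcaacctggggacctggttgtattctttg
Searched on both strands were CACGTG (core letters for the MiT family, which includes TFEB), TGANTCA (for AP-1), GGAAGT (for the family of PU.1), TGCTGAC (for MAF proteins) and AGGTCA (for nuclear receptors). None of the matches overlapped another. The Marco and Clec7a windows held none of the 5. The Cd36 window held ACTTCC, the reverse complement of GGAAGT, at bases -176 to -171 from the start. It also held TGACCT, the reverse complement of AGGTCA, at -228 to -223. The Mrc1 window held ACTTCC at -211 to -206. Of all 32851 promoters of this length in the table, 23.8% held the letters for PU.1, 16.3% those for nuclear receptors, 7.81% those for AP-1, 7.15% those for the MiT family and 4.67% those for MAF. Among the 9 receptor promoters 2 held the PU.1 letters (Cd36 and Mrc1), 2 the nuclear receptor letters (Cd36 and Olr1), 1 the AP-1 letters (Olr1) and 0 held either of the others. Matches at such shares are a description of the letters only. The Cd36 start in RefSeq coincided with the start of 0 of its 6 GENCODE transcripts, so the window may not lie at the start used in macrophages.

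The libraries held 17744540 to 24898552 counts, and 14099 genes with 99.9% of all counts were tested. Levels are CPM, normalised counts scaled to the library's size and composition (TMM factors), as mean ± SD of 3 libraries unless every library is given. Differences are log2 fold changes ± SE, and adjusted p-values are Benjamini-Hochberg values from edgeR's quasi-likelihood test over all tested genes, called at 0.05. Tmem175 stood at 15, 14.1 and 14.6 CPM in knockout cultures without antigen, against 26.1, 25.5 and 24.4 CPM in WT cultures, and was 1.73-fold to 1.88-fold lower in knockout over the 4 conditions. Knockout replicate 2 without antigen stood furthest from its partners (chi-square per degree of freedom 15.9 and 10, against 3.08 between replicates 1 and 3). Knockout pairs also reached 9.67 with antigen, 9.94 with IL-1β and 8.59 with IL-18, while WT pairs reached at most 5.07. All groups share 1 estimate of the spread in the fit. Leaving out knockout replicate 2 without antigen ended the Msr1 call without antigen and changed no other receptor's call. On the log2 scale the knockout antigen response moved from 0.55 to 0.70 for Msr1 and from -0.92 to -0.98 for Stab1. Several other values are given with and without it. Summed RNA of the 9 macrophage markers was 12059 to 12467 CPM in knockout and 17361 to 17827 CPM in WT libraries without antigen. With antigen it was 14929 to 17313 against 24087 to 25141 CPM. Without antigen 2 of the 9 were higher and 3 lower in knockout, beside 9.62% and 7.25% of all tested genes. With antigen 2 were higher and 2 lower, beside 7.7% and 7.62%. A further sum left out Lyz2. These 8 markers came to 5955 to 6291 CPM in knockout and 6162 to 6337 CPM in WT libraries without antigen. With antigen they came to 8907 to 9775 against 9739 to 9984 CPM. The 9 T cell markers summed to 21.9 to 24.9 CPM in knockout and 29.5 to 60.6 CPM in WT libraries over these conditions. Of these 9 markers Cd4 alone was called in the genotype comparisons without antigen (log2 fold change -2.10 ± 0.0725) and with antigen (-1.72 ± 0.0889), and the median of the 9 was -0.07 and 0.39. Lyz2 itself averaged 6083 CPM in knockout and 11291 CPM in WT cultures without antigen. Its log2 fold change was -0.89 ± 0.0596 without antigen and -1.11 ± 0.0598 with antigen. The melanoma genes Mlana, Tyr and Dct had at most 3 counts in any library.

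Per length of transcript (mean CPM per kb of the longest GENCODE transcript), Cd36 was the most abundant of the 10 without antigen, at 2029 in knockout and 1395 in WT cultures. Clec7a followed at 920 and 616. Msr1, Mrc1 and Lrp1 lay between 145 and 185 in both genotypes, Stab1 at 67.9 in knockout and 102 in WT, and Scarb1 at 27.8 and 28.7. Cd163 and Olr1 stayed under 1 in every group, and so did Marco in knockout cultures without antigen, at 0.314, against 2.73 in WT. With antigen the order differed between genotypes: Cd36 was highest in knockout, at 338 CPM per kb with Marco at 165, and Marco was highest in WT, at 778 CPM per kb with Cd36 at 216.

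**Figure D1:**
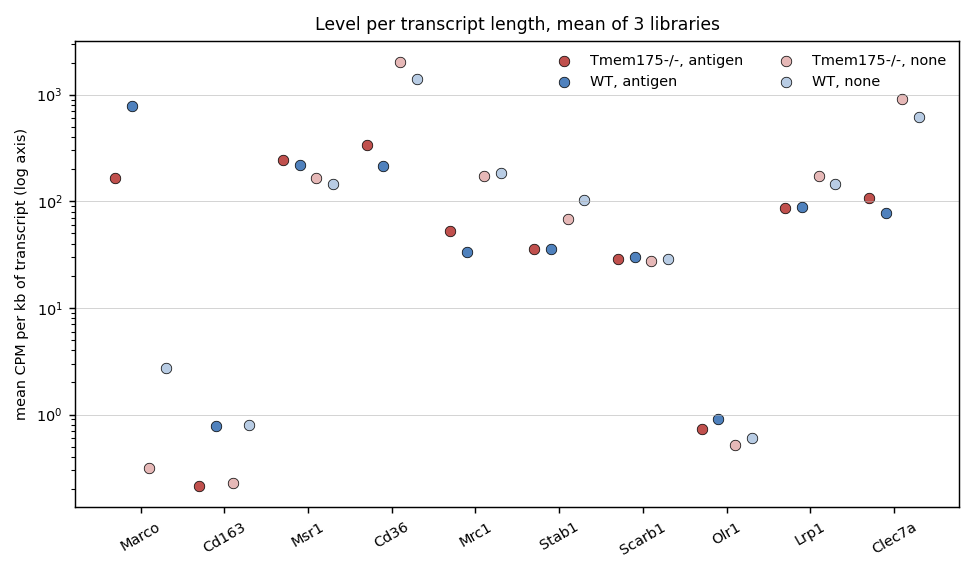
Mean CPM per kb of transcript (log axis) of the 10 receptors in knockout and WT cultures with antigen and without, each point the mean of 3 libraries. Marco covers the widest span, from 0.314 in knockout cultures without antigen to 778 in WT cultures with antigen, while Scarb1 stays between 27.8 and 29.8.

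The first comparison asks how the receptors differed between knockout and WT macrophage cultures before antigen. Marco, Cd163 and Stab1 RNA was lower in knockout cultures, and Cd36, Clec7a, Lrp1 and Msr1 RNA was higher. Called were thus 7 of the 10 (4 higher, 3 lower), against 16.9% of all tested genes (9.62% higher, 7.25% lower). The median log2 fold change of the 10 was -0.08, beside 0.01 over all tested genes. In bulk RNA, fewer cells that carry a transcript and less of it per cell cannot be told apart. Markers of other cells moved as well: 6 of 7 plasma cell markers were higher in knockout (summed 554 to 609 CPM, against 329 to 332 in WT), and 4 of 8 fibroblast markers were lower (13.3 to 29.3 CPM against 29 to 101). Of 7 markers of red pulp or resident macrophages 3 were lower and 1 was higher (727 to 814 CPM against 841 to 868). Of 6 tested dendritic cell markers 4 were lower (4.62 to 8.31 CPM against 9.32 to 11.4), and of 6 B cell markers 3 were lower and 1 was higher (61.4 to 76.1 CPM against 51.1 to 53.5). Their part in the receptor differences was not tested. Mrc1, Scarb1 and Olr1 missed the threshold, with log2 fold changes of -0.11 ± 0.134, -0.05 ± 0.0376 and -0.23 ± 0.223.

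**Figure D2:**
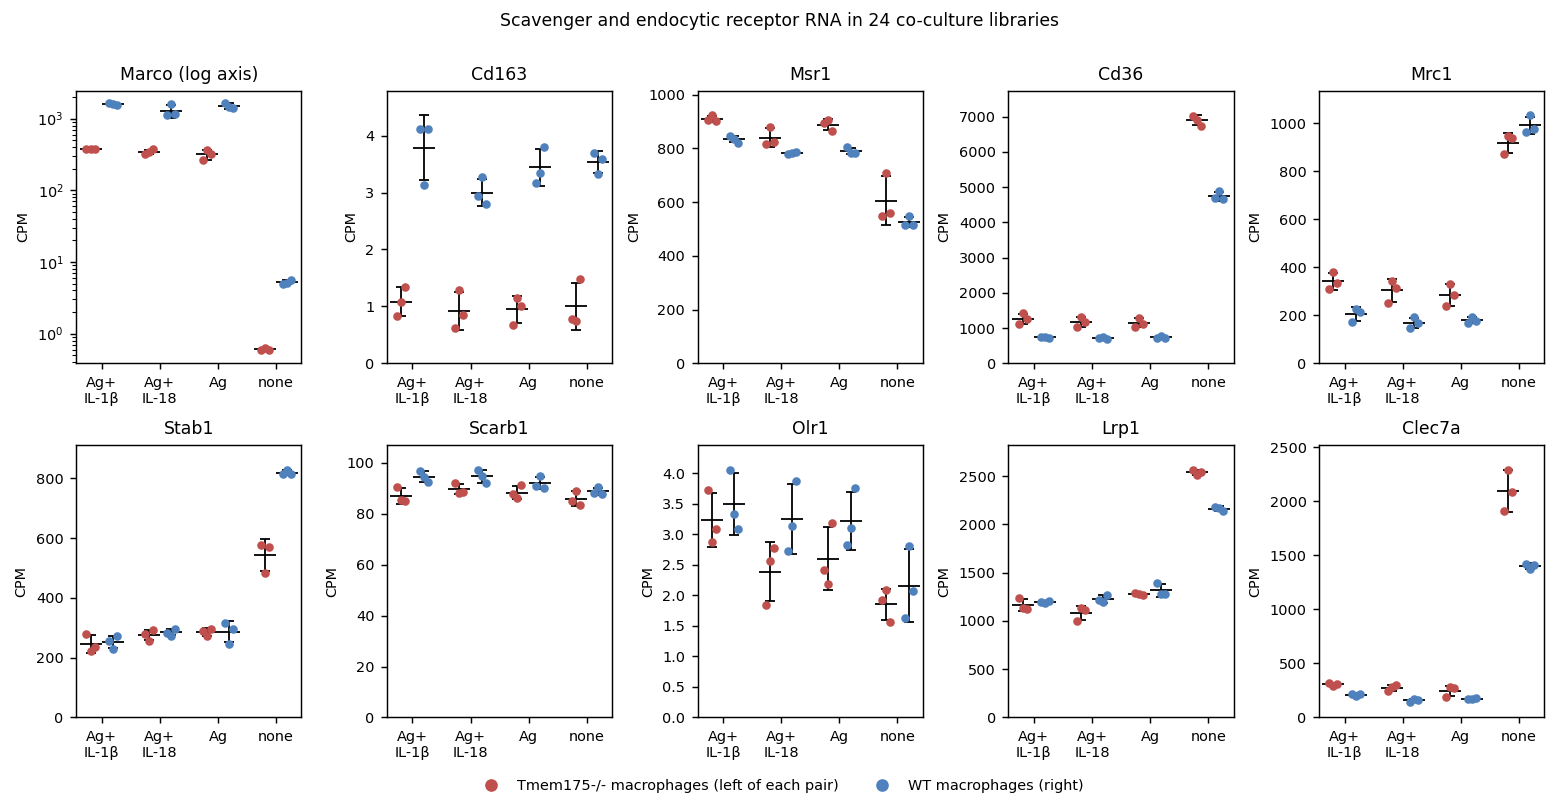
CPM of each receptor in all 24 libraries, knockout left of WT in each condition, with bars for mean ± SD of 3 libraries and a log axis for Marco alone. Marco and Cd163 libraries of knockout lie under those of WT in all 4 conditions, Cd36 libraries lie above, and Cd36, Mrc1, Stab1, Lrp1 and Clec7a are highest without antigen in both genotypes.

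MARCO is a class A scavenger receptor that binds bacteria and particles. Marco stood at 0.59, 0.639 and 0.584 CPM in knockout libraries without antigen (12, 12 and 13 counts), against 4.98, 5.16 and 5.61 CPM in WT libraries (101, 107 and 114 counts). Every knockout library lay far under every WT library. The log2 fold change was -3.11 ± 0.372, 8.64-fold lower (adjusted p 1.1e-05, and -3.16 without knockout replicate 2). CD163, the receptor that clears haemoglobin bound to haptoglobin, was the other strongly lower receptor. Cd163 stood at 0.786, 0.746 and 1.48 CPM in knockout, against 3.7, 3.33 and 3.59 CPM in WT. The groups did not overlap, although the counts were low in both, and the log2 fold change was -1.79 ± 0.226 (adjusted p 9.67e-07, and -1.63 without knockout replicate 2). Stabilin-1, encoded by Stab1, removes modified lipoproteins and extracellular matrix fragments. Stab1 stood at 577, 482 and 571 CPM in knockout, against 815, 829 and 814 CPM in WT, with no overlap (log2 fold change -0.59 ± 0.0943, adjusted p 0.000208). The lowest knockout value came from replicate 2, and without it the log2 fold change was -0.52 (adjusted p 0.000979).

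Of the receptors that were higher, CD36 is a class B scavenger receptor for oxidised LDL and long-chain fatty acids. Cd36 stood at 7022, 6918 and 6747 CPM in knockout, against 4682, 4893 and 4653 CPM in WT. It was 1.45-fold higher without overlap (log2 fold change 0.54 ± 0.0873, adjusted p 0.000235). Dectin-1, the β-glucan receptor, is encoded by Clec7a. Clec7a stood at 1907, 2292 and 2087 CPM in knockout, against 1422, 1369 and 1414 CPM in WT, again without overlap (log2 fold change 0.58 ± 0.11, adjusted p 0.00119, and 0.50 without knockout replicate 2). LRP1, a large receptor of the LDL receptor family that binds apolipoprotein E and protease complexes, differed little in size but with little spread. Lrp1 stood at 2569, 2516 and 2540 CPM in knockout, against 2185, 2173 and 2138 CPM in WT (log2 fold change 0.23 ± 0.041, adjusted p 0.000137). Msr1 encodes scavenger receptor A, a relative of MARCO. Msr1 stood at 550, 710 and 559 CPM in knockout, against 514, 549 and 515 CPM in WT, and its call was fragile. With all libraries the log2 fold change was 0.20 ± 0.0608 (adjusted p 0.0229), and without knockout replicate 2 it was 0.07 (adjusted p 0.213). The call was also lost when either WT replicate 1 or WT replicate 3 was left out (adjusted p 0.0859 and 0.0846). Fitting the compared libraries alone ended it as well (adjusted p 0.391).

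The second comparison asks what tumour cell antigen did within each genotype. Marco rose by more than any of the other 9, and Msr1 and Olr1 rose modestly, while Clec7a, Cd36, Mrc1, Stab1 and Lrp1 fell in both genotypes. Cd163 and Scarb1 missed the threshold in both. Called were 8 of 10 in knockout cultures, against 68.3% of all tested genes (33.8% higher, 34.6% lower), and 8 of 10 in WT cultures, against 68% (33.5% higher, 34.5% lower), in each case 3 higher and 5 lower. These shares lie near those of all genes, so the count is not particular to the receptors. Their median log2 fold change was -0.52 in knockout, beside 0.01 over all genes, and -0.38 in WT, beside -0.00. Antigen also moved markers of other cells. Of 9 neutrophil markers 7 were lower and 1 was higher in knockout, with summed levels of 421 to 472 CPM with antigen against 1270 to 1364 without. In WT 8 were lower and 0 higher, with 379 to 464 CPM against 1219 to 1369. Macrophage markers were 5 of 9 higher and 3 lower in each genotype, and without Lyz2 4 of 8 higher and 3 lower. Their part in the receptor responses was not tested.

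Marco stood at 266, 362 and 323 CPM in knockout cultures with antigen, against 0.59, 0.639 and 0.584 CPM without, which was 521-fold higher (log2 fold change 9.03 ± 0.226, adjusted p 2.03e-16). In WT cultures it stood at 1640, 1464 and 1386 CPM with antigen, against 4.98, 5.16 and 5.61 CPM without, which was 285-fold higher (log2 fold change 8.15 ± 0.174, adjusted p 2.14e-17). The ranges with and without antigen were far apart in both genotypes. Msr1, of the same class, stood at 895, 906 and 866 CPM with antigen in knockout (log2 fold change 0.55 ± 0.0607) and at 805, 784 and 783 CPM in WT (0.59 ± 0.0608), above every library without antigen of its genotype. Olr1 encodes LOX-1, a receptor for oxidised LDL best known from endothelium, and was scarce throughout, with 33 to 83 counts in a library. Its log2 fold change was 0.50 ± 0.213 in knockout (adjusted p 0.0408) and 0.57 ± 0.202 in WT (adjusted p 0.0137). Leaving out knockout replicate 1 or 3 without antigen, or knockout replicate 3 with antigen, ended the call in knockout (adjusted p 0.058, 0.153 and 0.236). Leaving out WT replicate 1 without antigen or WT replicate 3 with antigen ended it in WT (adjusted p 0.102 and 0.0713).

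Clec7a and Cd36, the most abundant receptors per length before antigen, fell the most. Clec7a stood at 189, 279 and 268 CPM in knockout cultures with antigen, 8.55-fold lower than without (log2 fold change -3.10 ± 0.12), and at 175, 172 and 179 CPM in WT cultures with antigen, 7.99-fold lower (-3.0 ± 0.12). Cd36 stood at 1039, 1286 and 1117 CPM in knockout with antigen, 6.01-fold lower (-2.59 ± 0.0924), and at 718, 775 and 712 CPM in WT, 6.45-fold lower (-2.69 ± 0.0929). Adjusted p-values of these 4 tests ran from 9.19e-15 to 1.83e-13, and no library with antigen reached a library without. The mannose receptor Mrc1, which binds and internalises glycoproteins that end in mannose or fucose, fell to 239, 332 and 284 CPM in knockout with antigen, against 871, 949 and 938 CPM without (log2 fold change -1.69 ± 0.139, adjusted p 5.94e-09). In WT it fell to 167, 192 and 177 CPM, against 966, 1033 and 977 CPM without (-2.47 ± 0.143, adjusted p 4.54e-11). The groups were again apart. Stab1 fell to 290, 272 and 297 CPM in knockout with antigen (-0.92 ± 0.0955, adjusted p 9.43e-08), and to 315, 247 and 296 CPM in WT (-1.52 ± 0.0966, adjusted p 9.35e-11). Lrp1 fell to 1290, 1276 and 1268 CPM in knockout (-0.99 ± 0.0414, adjusted p 2.44e-18), and to 1389, 1282 and 1278 CPM in WT (-0.72 ± 0.0412, adjusted p 4.01e-15). With antigen the Stab1 and Lrp1 libraries of the genotypes overlapped.

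Scarb1 encodes SR-B1, the receptor for high-density lipoprotein, and was the steadiest of the 10. Over all 24 libraries it ran from 83.6 to 97.3 CPM with a median of 90.4, and its highest group mean was 1.1 times its lowest. Its antigen response was 0.04 ± 0.0375 in knockout and 0.05 ± 0.0375 in WT on the log2 scale. Cd163, although low, was also close to its level without antigen in cultures with antigen. It stood at 0.68, 1.14 and 1.01 CPM in knockout cultures with antigen and at 3.16, 3.35 and 3.8 CPM in WT, with antigen responses of -0.13 ± 0.284 and -0.04 ± 0.183. The intervals around these Cd163 values are wide, so that changes of modest size were not detectable at this depth.

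**Figure D3:**
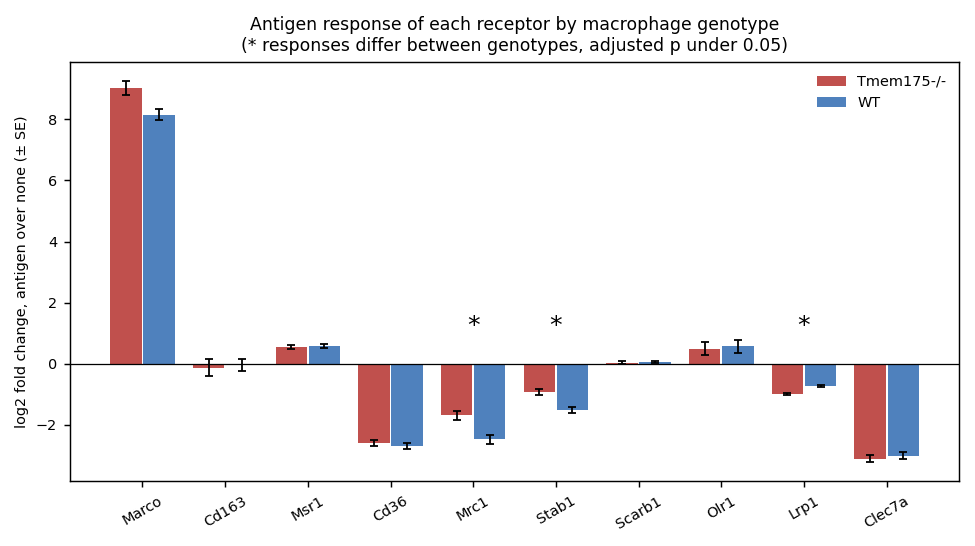
Antigen response (log2 fold change ± SE, antigen over none) of each receptor in knockout and WT cultures, with stars where the difference of responses had an adjusted p under 0.05. Marco stands at 9.03 in knockout and 8.15 in WT, Clec7a at -3.10 and -3.0, and the stars mark Mrc1, Stab1 and Lrp1.

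The third comparison tests whether the antigen response itself differed between genotypes. It did for Mrc1, Stab1 and Lrp1, which is 3 of 10 called (2 with a positive and 1 with a negative difference), against 8.39% of all tested genes (3.79% and 4.6%). Mrc1 fell less in knockout (log2 fold change -1.69) than in WT (-2.47). The difference of responses was 0.78 ± 0.193 (adjusted p 0.0175, and 0.81 without knockout replicate 2 without antigen). Stab1 also fell less in knockout, with a difference of 0.59 ± 0.134 (adjusted p 0.00976, and 0.52 without that library). Without antigen its knockout libraries lay under those of WT, and with antigen both genotypes averaged 286 CPM. Lrp1 fell more in knockout, with a difference of -0.27 ± 0.058 (adjusted p 0.00284). Marco, whose knockout response was numerically larger, had a difference of 0.87 ± 0.443 with an adjusted p of 0.278. For the other 6 receptors the differences lay between -0.10 and 0.10, with standard errors of 0.053 to 0.337. In the same comparison 4 of 9 neutrophil markers had a positive difference and 0 a negative one (median 0.70, beside -0.01 over all genes), 2 of 6 B cell markers a positive and 1 a negative one, and Cd4 a positive one (0.38 ± 0.119). Their part was not tested.

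The fourth set of comparisons asks how knockout and WT cultures differed once antigen was present, alone or with a cytokine. Marco and Cd163 were lower and Cd36, Mrc1 and Clec7a higher in knockout in each of these 3 conditions. With antigen alone 5 of 10 were called (3 higher, 2 lower), against 15.3% of all genes (7.7% higher, 7.62% lower). With antigen and IL-1β 6 of 10 were called (3 higher, 3 lower), against 13.8% (7.22% higher, 6.55% lower). With antigen and IL-18 6 of 10 were called (3 higher, 3 lower), against 20.2% (9.89% higher, 10.3% lower), or 2851 genes, a number that fell to 1867 when WT replicate 3 of that condition was left out while the receptor count stayed at 6. The medians of the 10 were -0.02, -0.04 and -0.06. Plasma cell markers were 5 of 7 higher and 1 lower, and fibroblast markers 6 of 8 lower, in knockout with antigen alone (summed 439 to 464 CPM against 309 to 325, and 42.5 to 51.1 against 126 to 189). Red pulp or resident macrophage markers were 4 of 7 lower and 0 higher (1295 to 1463 CPM against 1634 to 1803). Plasma cell markers were 6 of 7 higher and 1 lower, and fibroblast markers 6 of 8 lower, with either cytokine as well. Red pulp or resident macrophage markers were 4 of 7 lower and 1 higher with IL-1β, and 5 lower with IL-18. Neutrophil markers were 2 of 9 higher in knockout with antigen alone (421 to 472 CPM against 379 to 464), 7 with IL-1β (483 to 628 against 359 to 409) and 6 with IL-18 (513 to 637 against 349 to 379), with 0 lower. Of 6 tested dendritic cell markers 2, 3 and 4 were lower in these conditions and 0 higher. B cell markers were 1 of 6 higher and 2 lower with antigen alone, 2 and 1 with IL-1β, and 3 and 0 with IL-18. The part of these cells in the receptor differences was not tested.

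With antigen, Marco stood at 266 to 362 CPM in knockout and 1386 to 1640 CPM in WT libraries, 4.72-fold lower in knockout (log2 fold change -2.24 ± 0.12, adjusted p 5.93e-10). With antigen and IL-1β it stood at 371, 379 and 378 CPM in knockout, against 1650, 1583 and 1568 CPM in WT (-2.09 ± 0.119). With antigen and IL-18 it stood at 326, 340 and 372 CPM in knockout, against 1125, 1595 and 1148 CPM in WT (-1.90 ± 0.119). Thus no knockout library came near a WT library in any of the 4 conditions. Cd163 was 3.66-fold, 3.49-fold and 3.29-fold lower in the same 3 conditions (adjusted p at most 3.46e-06), and its 12 knockout libraries ran from 0.628 to 1.48 CPM over the 4 conditions, against 2.8 to 4.12 CPM in the 12 WT libraries. Neither receptor's response to antigen or cytokine differed between genotypes at the threshold.

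Cd36 stood at 1130, 1418 and 1250 CPM in knockout with antigen and IL-1β, against 759, 758 and 718 CPM in WT, and at 1027, 1314 and 1173 against 728, 753 and 685 CPM with IL-18. Its log2 fold changes were 0.64 ± 0.088, 0.77 ± 0.0881 and 0.70 ± 0.088 with antigen alone, with IL-1β and with IL-18. Knockout replicate 2 was the highest of its 3 in each of these conditions. WT replicate 2 was also the highest of its 3 with antigen alone (775 CPM) and with IL-18 (753 CPM). Mrc1 stood at 308, 382 and 335 CPM in knockout with IL-1β, against 172, 227 and 213 CPM in WT, and at 251, 344 and 315 against 148, 192 and 167 CPM with IL-18. The log2 fold changes of Mrc1 were 0.67 ± 0.138 (adjusted p 0.00275), 0.74 ± 0.138 (0.00131) and 0.84 ± 0.139 (0.000354), whereas it had not been called without antigen. Clec7a stood at 317, 289 and 309 CPM in knockout with IL-1β, against 220, 202 and 214 CPM in WT, and at 247, 278 and 297 against 141, 171 and 163 CPM with IL-18. Its log2 fold changes were 0.48 ± 0.114 (adjusted p 0.00742), 0.53 ± 0.113 (0.00406) and 0.79 ± 0.114 (9.62e-05). With antigen alone the Clec7a libraries of the genotypes did not overlap, yet when these 6 libraries were fitted by themselves the adjusted p was 0.159.

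Msr1 libraries of knockout lay above those of WT with antigen alone (895, 906 and 866 against 805, 784 and 783 CPM), but the log2 fold change of 0.17 ± 0.0604 missed the threshold (adjusted p 0.0633). With IL-1β and IL-18 it was 0.12 and 0.10. Scarb1 was called once, with antigen and IL-1β (90.6, 85.4 and 85.1 CPM in knockout, against 96.8, 94.6 and 92.5 CPM in WT). That difference was small (log2 fold change -0.12 ± 0.0373, adjusted p 0.0291), and leaving out 1 of 4 of its 6 libraries, knockout replicates 2 and 3 and WT replicates 1 and 2, gave adjusted p-values of 0.0738 to 0.136. Lrp1 was lower in knockout with antigen and IL-18 (1001, 1132 and 1117 CPM, against 1218, 1197 and 1269 CPM in WT). The log2 fold change was -0.18 ± 0.0411 (adjusted p 0.00218), opposite in direction to the difference without antigen. Stab1 did not pass in any condition with antigen (log2 fold changes of 0.00, -0.03 and -0.05), nor did Olr1 (-0.31, -0.11 and -0.44).

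**Figure D4:**
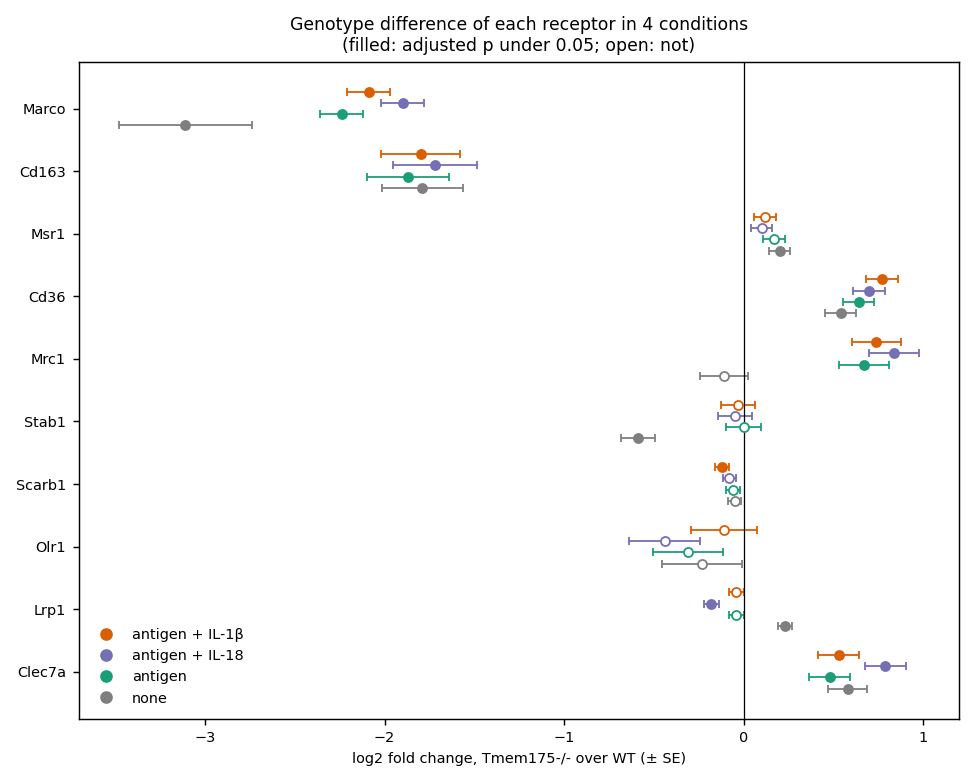
Log2 fold change ± SE of knockout over WT for each receptor in 4 conditions, filled where the adjusted p was under 0.05. Marco (-3.11 to -1.90) and Cd163 (-1.87 to -1.72) lie left of 0 in all 4, Cd36 (0.54 to 0.77) and Clec7a (0.48 to 0.79) right of 0, Mrc1 moves right of 0 with antigen and Stab1 lies left of 0 without it.

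The last comparisons ask what IL-1β or IL-18 added to antigen. The receptors changed little. In WT cultures 0 of 10 were called with IL-1β, against 0.0567% of all genes (8 genes, 0.0284% higher and 0.0284% lower), and 0 of 10 with IL-18, against 0% (0 genes, 1 by DESeq2, and 580 or 4.11% at an unadjusted p under 0.05). In knockout cultures 0 of 10 were called with IL-1β, against 0.0426% (6 genes), and 1 of 10 with IL-18, against 0.213% (30 genes, 0.0496% higher and 0.163% lower). At an unadjusted p under 0.05, Clec7a and Lrp1 passed with IL-1β in WT, and Clec7a, Lrp1, Marco and Stab1 in knockout. That is 2 and 4 of 10, beside 1319 genes (9.36%) in WT and 1882 genes (13.3%) in knockout, while DESeq2 called 0 of 10 in each of these 2. With IL-18 in WT only Lrp1 passed unadjusted, and DESeq2 called 0 of 10. The called receptor was Lrp1 in knockout with IL-18, at 1001, 1132 and 1117 CPM against 1290, 1276 and 1268 CPM with antigen alone (log2 fold change -0.24 ± 0.0411, adjusted p 0.0189). Leaving out replicate 1 or 3 of either group ended that call (adjusted p 0.0543 to 0.146). The IL-1β and the IL-18 comparison of a genotype share the 3 libraries with antigen alone.

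Averaged over both genotypes, a comparison added after the data were seen, Lrp1 was lower with either cytokine. Its log2 fold change was -0.13 ± 0.0291 for IL-1β (adjusted p 0.0305), and -0.17 ± 0.0291 for IL-18 (adjusted p 0.0203). Clec7a had the largest value with IL-1β, 0.29 ± 0.0802, and missed the threshold (adjusted p 0.0703). The remaining 8 receptors had averaged log2 fold changes of -0.20 to 0.23 with IL-1β and -0.12 to 0.03 with IL-18. The cytokine responses did not differ between genotypes for any receptor (0 of 10, against 0% of all genes, for either cytokine). At an unadjusted p under 0.05 there were 0 receptors and 576 genes for IL-1β, and 1 receptor, Lrp1, and 919 genes for IL-18, and DESeq2 called 0 and 4 genes.

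Ranked over all 8 group means, Marco was highest in WT with antigen and IL-1β (1601 ± 43.7 CPM) and lowest in knockout without antigen. All 3 WT groups with antigen lay above all 3 knockout groups with antigen, and within each of these sets neighbouring groups overlapped. Cd163 split by genotype alone, with 4 overlapping WT groups above 4 overlapping knockout groups. Cd36, Lrp1 and Clec7a were highest in knockout without antigen and next in WT without antigen, with no overlap between these 2 groups. Mrc1 (992 ± 36.2 CPM) and Stab1 (819 ± 8.35 CPM) were highest in WT without antigen. Msr1 was highest in knockout with antigen and IL-1β (910 ± 11.7 CPM) and lowest in WT without antigen (526 ± 20.1 CPM). For Scarb1 and Olr1 every neighbour in the order overlapped the next.

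Each receptor was matched to other genes by correlation over the 8 group means of log2 CPM, which share libraries across genes. For most receptors these means mainly reflect antigen, while those of Cd163 follow genotype. The best matches among many genes have a high r by selection, and r does not compare the size of changes. Cd36 and Clec7a correlated with each other at r = 0.995 and Cd36 with Marco at r = -0.995 (n = 8 groups). Among 9899 other genes compared, the 3 most like Marco were Mmp2, a gelatinase, Ddit4, an mTORC1 inhibitor, and Ncf1, a subunit of the NADPH oxidase (each r = 0.998). Those most like Cd163 were Cdc42bpa (0.986), Armcx2 and the collagen IV gene Col4a1 (each 0.978). Those most like Cd36 were the retromer subunit Vps26a, Evl and cathepsin B, Ctsb (each 0.999). Those most like Clec7a were Lyrm2, Ak8 and Atp6v0d2, a subunit of the vacuolar proton pump (each 0.999). Atp6v0d2 had a mean of 118 CPM in knockout and 75.9 CPM in WT cultures with antigen, against 1742 and 1247 CPM without. Stab1 was most like the transferrin receptor, Tfrc (0.997), Lrp1 like Jmjd1c (0.997), Mrc1 like Elp4 (0.997), Olr1 like Clec2i (0.983) and Scarb1 like Pigm (0.966).

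Lists of related genes place the 10 among their kind. Counts of called genes in each list, here and below, are to be read beside the shares over all tested genes. Those shares were 16.9% for knockout against WT without antigen and 15.3% with antigen. For antigen they were 68.3% in knockout and 68% in WT, and for the difference of responses 8.39%. The lists were not tested as groups. Of 16 other scavenger receptors 14 were tested. Without antigen 2 were higher and 3 lower in knockout (median -0.28, beside 0.01 over all genes), and with antigen 3 and 3. Cd5l, a secreted scavenger protein of macrophages, stood at 31.2, 42.4 and 31 CPM in knockout with antigen, against 94.7, 99.2 and 87.9 CPM in WT (log2 fold change -1.44 ± 0.151, adjusted p 2.85e-06). Cd14, the LPS co-receptor, was lower in knockout without antigen (-0.38 ± 0.0802) and with antigen (-0.61 ± 0.0779). Scarf1 was higher in knockout in these conditions (0.48 ± 0.0587 and 0.17 ± 0.048), and so was Cd68 (0.21 ± 0.0456 and 0.25 ± 0.0458). Antigen raised Cd14 by 1.75 in knockout and 1.97 in WT on the log2 scale, and Scarf1 by 1.17 and 1.49. Stab2, the relative of Stab1, had log2 fold changes of -3.49 in knockout and -3.20 in WT, and the collectin Colec12 of -2.65 and -1.92. In all, antigen changed 10 of the 14 in knockout (4 higher, 6 lower) and 8 in WT (3 higher, 5 lower). The shares of all tested genes were 68.3% and 68%.

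Among myeloid C-type lectin receptors, the family of Mrc1 and Clec7a, 18 of 27 listed were tested (26 are in the table). Antigen raised 8 and lowered 8 in each genotype. Over all tested genes 33.8% were higher and 34.6% lower in knockout, and 33.5% and 34.5% in WT. Clec4e, the receptor Mincle, stood at 459, 391 and 408 CPM in knockout with antigen, against 8.89, 17.7 and 10.9 CPM without (log2 fold change 5.08 ± 0.222), and at 547, 527 and 527 against 16.1, 36 and 23.1 CPM in WT (4.41 ± 0.206). Clec4n, which encodes dectin-2, rose by 2.55 and 2.43. Mgl2 and Clec10a, lectins for galactose-type sugars, fell: Mgl2 had log2 fold changes of -3.36 ± 0.226 in knockout and -4.94 ± 0.223 in WT, and Clec10a of -2.31 and -3.17. Like that of Mrc1, their fall was smaller in knockout, with differences of responses of 1.58 ± 0.41 (adjusted p 0.0144) and 0.86 ± 0.264 (adjusted p 0.048). Mgl2 was at 0.425 to 0.529 CPM in knockout and 0.247 to 0.419 CPM in WT libraries with antigen, so these folds rest on few counts. Without antigen 2 lectins were higher and 6 lower in knockout, beside 9.62% and 7.25% of all tested genes. Among them were Clec1a, higher by 1.5 ± 0.141, and Mrc2 (-1.70 ± 0.401), a mannose receptor relative that takes up collagen.

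Of the LDL receptor family and its ligands or chaperones, the relatives of Lrp1, 16 of 20 were tested. Without antigen 6 were higher and 2 lower in knockout, beside 9.62% and 7.25% of all tested genes. With antigen 0 were higher and 4 lower, beside 7.7% and 7.62%. Lrpap1, the chaperone of LRP1, stood at 159, 152 and 153 CPM in knockout without antigen, against 126, 126 and 123 CPM in WT (log2 fold change 0.31 ± 0.0492), and its antigen response was smaller in knockout (difference -0.36 ± 0.0689, adjusted p 0.000996). All 6 called differences of antigen response in this list were negative, as that of Lrp1 was. Over all tested genes 3.79% had a positive and 4.6% a negative one. The 6 are a count and were not tested as a group. Of 17 tested receptors and bridging proteins for dying cells, 6 were higher and 3 lower in knockout without antigen, and 1 and 1 with antigen. Timd4, a phosphatidylserine receptor of resident macrophages, was 8.05-fold lower at 0.0983, 0.266 and 0.0449 CPM in knockout, against 0.839, 1.45 and 0.984 CPM in WT. That fold, from cultures before antigen, rests on few counts. Among the 6 genes higher in knockout before antigen, Mfge8 had the largest change (log2 fold change 0.62 ± 0.135). Antigen lowered 9 of the 17 in each genotype and raised 3 in knockout and 5 in WT. Of all tested genes 34.6% were lower and 33.8% higher in knockout, and 34.5% and 33.5% in WT. Among those lowered were the bridging proteins Gas6 (log2 fold changes of -2.22 in knockout and -2.48 in WT) and Mfge8 (-2.62 and -2.12).

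All 26 genes of the endocytic machinery were tested. In knockout 4 were higher and 2 lower without antigen, and 7 and 1 with antigen, with medians of 0.03 and 0.06. Of all tested genes 9.62% were higher and 7.25% lower without antigen, and 7.7% and 7.62% with antigen. Dab2, a clathrin adaptor for LDL receptor family members, stood at 237, 291 and 242 CPM in knockout without antigen, against 349, 422 and 360 CPM in WT, and at 322, 376 and 340 against 285, 322 and 312 CPM with antigen. Its antigen response thus differed (0.73 ± 0.123, adjusted p 0.000965), the single such call in the list. Of 14 genes of dectin-1 signalling 2 were higher and 2 lower in knockout without antigen and 0 with antigen. The largest of these was Malt1, at 0.29 ± 0.0654. Antigen raised the adaptor Fcer1g by 0.86 in both genotypes and lowered Malt1 (log2 fold changes of -0.92 in knockout and -0.50 in WT).

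Of 20 transcription factors known to act on these receptors, 7 were higher and 3 lower in knockout without antigen, and 4 and 3 with antigen. The shares of all tested genes were 9.62% and 7.25% without antigen, and 7.7% and 7.62% with antigen. Pparg, known to act on Cd36, stood at 95.4, 99.6 and 104 CPM in knockout without antigen, against 76.2, 81.6 and 77.9 CPM in WT (log2 fold change 0.34 ± 0.0506, adjusted p 1.18e-05). With antigen it fell to 13.2, 12.8 and 11.8 CPM in knockout and 12.6, 14 and 13 CPM in WT, and the libraries of the genotypes overlapped. Nr1h3, the oxysterol receptor LXRα, was higher in knockout without antigen (0.43 ± 0.0617) and with antigen (0.23 ± 0.0614). Spic, a factor of red pulp macrophages, was lower (-1.25 ± 0.263 and -0.93 ± 0.125) and rose with antigen in both genotypes (3.59 and 3.27). Egr2 fell with antigen (-5.20 in knockout and -4.74 in WT). Irf4 was higher in knockout with antigen (1.14 ± 0.142), and it also stands in the plasma cell list, as Spic, Cd5l and Timd4 do in that of red pulp or resident macrophages. A list of 9 genes covered sheddases, enzymes that release receptors from the cell surface, and proteins that regulate them, an inhibitor among these. Antigen raised 6 of the 9 in each genotype and lowered 2 in knockout and 1 in WT. Over all tested genes 33.8% were higher and 34.6% lower in knockout, and 33.5% and 34.5% in WT. Among those raised were Mmp14 (log2 fold changes of 2.77 in knockout and 3.16 in WT) and Mmp2 (3.72 and 3.14). RNA levels do not show how much receptor was shed.

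**Figure D5:**
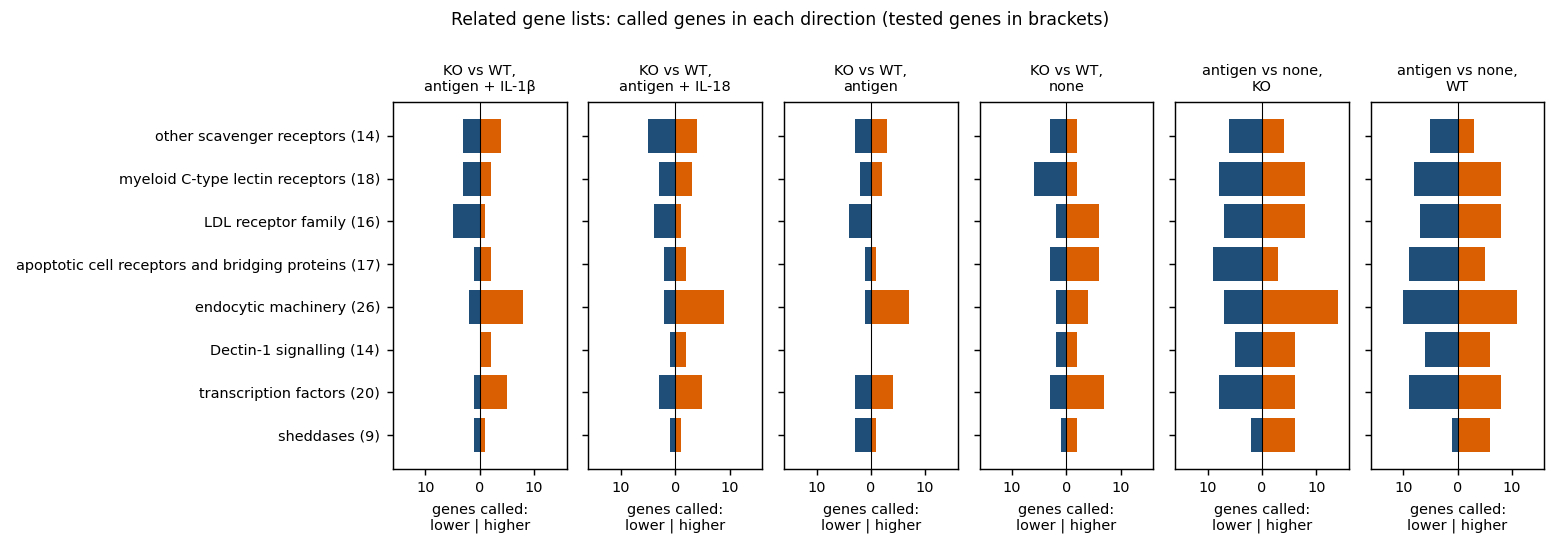
Number of called genes (adjusted p under 0.05) in 8 lists of related genes, lower to the left and higher to the right, for knockout against WT in 4 conditions and for antigen against none in each genotype, with tested genes in brackets. Endocytic machinery with antigen has 7 higher and 1 lower in knockout, and C-type lectins have 8 higher and 8 lower with antigen in both genotypes. Of all tested genes 15.3% were called for knockout against WT with antigen. For antigen against none 68.3% were called in knockout and 68% in WT.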

How the data were processed

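Poly(A) RNA of 24 co-cultures was sequenced by the authors, who deposited raw counts per Ensembl gene, 1 column per library. Reads were trimmed with fastp and the build was GRCm39, per the submitters' processing notes. The aligner, counter, annotation and strand setting are not given in the sources used here. Groups came from sample titles. Symbols were matched by Ensembl identifier (346 of 55487 without one, 0.0228% of counts), and lengths came from GENCODE vM21.

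Genes passing edgeR's filterByExpr (14099) were scaled with TMM factors and fitted with edgeR 4.0.16's quasi-likelihood model in R 4.3.3 to all 24 libraries, 1 coefficient per group (16 residual degrees of freedom). The common biological coefficient of variation was 5.01%. Of 13 comparisons 3 were differences of responses. Within groups, no pair of replicates held the same values or agreed within sampling noise (chi-square per degree of freedom of at least 1.45). Depth was 17744540 to 24898552 counts, and error estimates cover these libraries only.

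The receptors, lists and tests were chosen with earlier results of these data known. The genes named are the 10 receptors, Tmem175, up to 4 called members per list, comparison and direction with the largest change, and the 3 genes most like each receptor (mean of at least 2 log2 CPM). The genes most like Msr1 are not reported here. Promoter windows came from RefSeq on GRCm38.p6, a build other than that of the counts, and were used for sequence alone. Alternatives were DESeq2 1.42.0, its size factors within edgeR, keeping genes of low count, a replicate block, leaving out 432 immunoglobulin genes, fitting the compared libraries alone, leaving out each library, and, added after the data were seen, cytokine effects averaged over both genotypes.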

Additional observations from a re-analysis of the deposited data

Results flagged for a closer look

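The antigen response differed between genotypes for 3 receptors, by a test of the difference itself (edgeR's quasi-likelihood test, Benjamini-Hochberg adjustment over 14099 genes). Mrc1 had a difference of 0.78 ± 0.193 on the log2 scale (knockout minus WT, adjusted p 0.0175), with 239, 332 and 284 CPM in knockout and 167, 192 and 177 CPM in WT libraries with antigen. Stab1 had a difference of 0.59 ± 0.134 (adjusted p 0.00976), and its genotypes differed without antigen and overlapped with it. Lrp1 had a difference of -0.27 ± 0.058 (adjusted p 0.00284). All 3 kept their calls under each alternative run, including each library left out.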

How the results depend on the processing

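The 10 receptors gave 130 values over 13 comparisons, of which 44 were called. Of these 38 were called under every alternative run, 0 changed direction, and the 6 others are Msr1 (knockout against WT without antigen), Clec7a (with antigen), Scarb1 (antigen and IL-1β), Olr1 (antigen response in each genotype) and Lrp1 (IL-18 in knockout). Fitted alone, the compared libraries gave adjusted p-values of 0.391 for Msr1 and 0.315 for Lrp1, DESeq2 gave 0.0574 for Olr1 in knockout, and omitting the filter gave 0.0889 for Scarb1. Median-of-ratios factors and leaving out immunoglobulin genes changed no receptor's call. Values not called in the main test were called somewhere for 7, among them Msr1 with antigen (0.17; adjusted p 0.000561 with no filter, 0.0294 with the block, 0.00491 fitted alone) and Clec7a with IL-1β in WT (0.27; adjusted p 0.000706 fitted alone). The cause was not tested.

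Whether replicate numbers pair the samples could not be settled, as the labels do not say, and the main fit did not pair them. Some receptors followed the replicate number across genotypes. Mrc1 was highest in replicate 2 in every group, for example at 949 CPM in knockout and 1033 CPM in WT without antigen. Stab1 was lowest in replicate 2 in every group but WT without antigen. Correlations of deviations from the group mean between same-numbered libraries were small but above 0 in each comparison. They were 0.00157 to 0.157 for number 1, 0.0526 to 0.229 for number 2 and 0.00775 to 0.0785 for number 3. Libraries of different numbers gave -0.192 to 0.111. A replicate block gained 2 receptor calls, Msr1 above and Mrc1 with IL-1β in knockout (0.27, adjusted p 0.0265), and lost 0.

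Counts of cytokine calls depend most on the processing. In WT with IL-1β the 8 genes became 79 with no filter, 102 with the block, 46 fitted alone and 193 averaged over genotypes, and 2 to 7 leaving out 1 library; receptors called became 1 fitted alone and 1 averaged. In WT with IL-18 the 0 genes became 2, 1, 2 and 7 in the same order, 1 with DESeq2, and 0 to 1 leaving out 1 library; receptors called became 1 averaged. In knockout with IL-1β the 6 genes became 287 with no filter, 422 with the block, 193 averaged, 18 with DESeq2, and 1 to 284 leaving out 1 library (284 without replicate 2 with antigen); receptors called became 1 with no filter, 1 with the block and 1 averaged. In knockout with IL-18 the 30 genes became 302, 274, 0 fitted alone, 7 averaged and 112 with DESeq2, and 0 to 233 leaving out 1 library; receptors called became 0 fitted alone and 0 to 1 leaving out 1 library. The difference of IL-1β responses gave 1 gene with no filter, and that of IL-18 responses 17 with no filter, 5 with the block, 4 with DESeq2 and 0 to 3 leaving out 1 library. Knockout against WT with IL-18 gave 1867 to 2562 genes leaving out 1 library. Low counts limit Cd163 (13 to 87 a library), Olr1 (33 to 83) and Marco without antigen.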
